A study of Homo sapiens with 18 samples.

Results

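The 10 genes described here encode matrix-degrading and shedding metalloproteinases and their tissue inhibitors: MMP1, MMP10, MMP2, MMP14, MMP15, ADAMTS1, ADAM17, TIMP1, TIMP2 and TIMP3. They were taken by gene symbol from a matrix of 62754 genes, and all 10 were among the 15167 genes that passed the filter on low counts. The cells, EA.hy926, are a human endothelial line made by fusing umbilical vein endothelial cells with the lung carcinoma line A549. Cells were treated with the transfection reagent alone (Mock), transfected with a non-targeting siRNA (siNT) or with siRNA against ELMO1 (siELMO1), each siRNA at 10 nM. RNA came from cells 48 h after transfection (0 h) or from cells then kept for 24 h with 1 μg/ml poly(I:C), a synthetic double-stranded RNA that activates TLR3. Each of the 6 groups held 3 libraries, 18 in all, which the study describes as biological replicates. The cells are those of a single line, and serum had been lowered before poly(I:C) was added. The 24 h libraries differ from the 0 h libraries in time after transfection as well as in poly(I:C), which cannot be told apart. The study reports widespread cell death among siNT cells given poly(I:C), far less of it in Mock, and its suppression by the knockdown. What part such death has in the siNT levels at 24 h, or in any comparison that uses them, was not tested.

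Matrix metalloproteinases are zinc enzymes made as inactive precursors. MMP1 is an interstitial collagenase that cuts fibrillar collagens, MMP10 (stromelysin-2) cuts proteoglycans and other matrix proteins and can activate other precursors, and MMP2 (gelatinase A) degrades denatured and basement membrane collagens. MMP14 and MMP15 are anchored in the cell membrane, and MMP14 activates the MMP2 precursor at the cell surface with TIMP2 as a bridge. ADAMTS1 is a secreted protease that cuts proteoglycans such as versican, and ADAM17 is the membrane sheddase that releases TNF and several growth factor precursors. TIMP1, TIMP2 and TIMP3 bind to the active site of metalloproteinases, TIMP1 is a poor inhibitor of the membrane-type enzymes, and TIMP3 is held in the matrix and also inhibits ADAM17. Endothelial cells use these enzymes in sprouting and in turnover of the basement membrane. The values below are RNA levels, not enzyme activities.

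The libraries held 40.4 to 73.9 M estimated counts each. ELMO1 was at 2.66 to 3.32 CPM in the Mock and siNT libraries at 0 h and at 0.299 to 0.419 CPM in those of siELMO1, and at 1.52 to 3.58 and 0.155 to 0.359 CPM at 24 h. CPM is the count of a gene relative to the total of its library, after TMM scaling. In siELMO1 at 0 h, replicate 1 stood apart: its counts differed from those of the other two with a chi-square of 70.9 and 79.1 per gene, where the other 16 pairs of replicates gave 10.2 to 29.2. Mitochondrially encoded genes gave 1.86% of its counts, 4.02% of those of replicate 2 and 3.95% of those of replicate 3. All libraries of the other groups had 1.31% to 2.42%, so by this share replicates 2 and 3 were the unusual ones. They also had the lowest totals of the series, 40.4 and 51.0 M, against 71.1 M in replicate 1. Which of the 3 libraries is atypical cannot be told from these values. Of the 10 endothelial markers, 9 were above 1 CPM in each group and CLDN5 was not. Their summed level was 2044 to 2261 CPM in the Mock and siNT libraries at 0 h, 2845 to 3047 CPM in those of siELMO1, 1501 to 2162 CPM in the controls at 24 h and 2617 to 3174 CPM in siELMO1 at 24 h. All 5 fibroblast markers and the leukocyte markers PTPRC, CD14 and CD3E were under 1 CPM in each group. The summed level of the 5 leukocyte markers, carried by CD68, was 35.7 to 100 CPM at 0 h and 140 to 285 CPM at 24 h. Of the 6 epithelial markers, CDH1 was at 0 in every library and KRT8 and KRT18 carried nearly the whole sum, which was 767 to 818 CPM in the controls and 980 to 1088 CPM in siELMO1 at 0 h, and 489.9 to 547 CPM in the controls and 539 to 632 CPM in siELMO1 at 24 h. Their part in the results below was not tested, and in bulk RNA fewer cells of a type and less RNA per cell cannot be told apart.

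Levels of different genes were compared per length, as TPM, a count divided by transcript length and scaled to a fixed library total. MMP1 had the highest level of the 10 genes in every group, from 1164 ± 7.46 TPM (SD, n = 3) in siELMO1 at 24 h to 2791 ± 65.2 TPM in Mock at 0 h. MMP2 ranged from 188 ± 22.7 TPM in siNT at 24 h to 883 ± 43.1 TPM in siELMO1 at 0 h, MMP14 from 96.3 ± 6.32 to 250.4 ± 16.7 TPM, and ADAM17 and ADAMTS1 from 46.1 to 127 and from 33.8 to 74.5 TPM. MMP15 and MMP10 were the least abundant, at group means of 1.58 to 6.95 and 0.944 to 4.14 TPM. The TIMPs lay between MMP1 and MMP14 at 0 h in Mock, with TIMP1 at 377 ± 9.50, TIMP3 at 348 ± 6.87 and TIMP2 at 279 ± 10.1 TPM. The highest group mean was 4.59 times the lowest for MMP2, 4.30 times for MMP10, 4.203 times for MMP15 and between 1.76 times (TIMP1) and 2.61 times (ADAM17) for the other 7 genes, on the CPM scale.

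**Figure D1:**
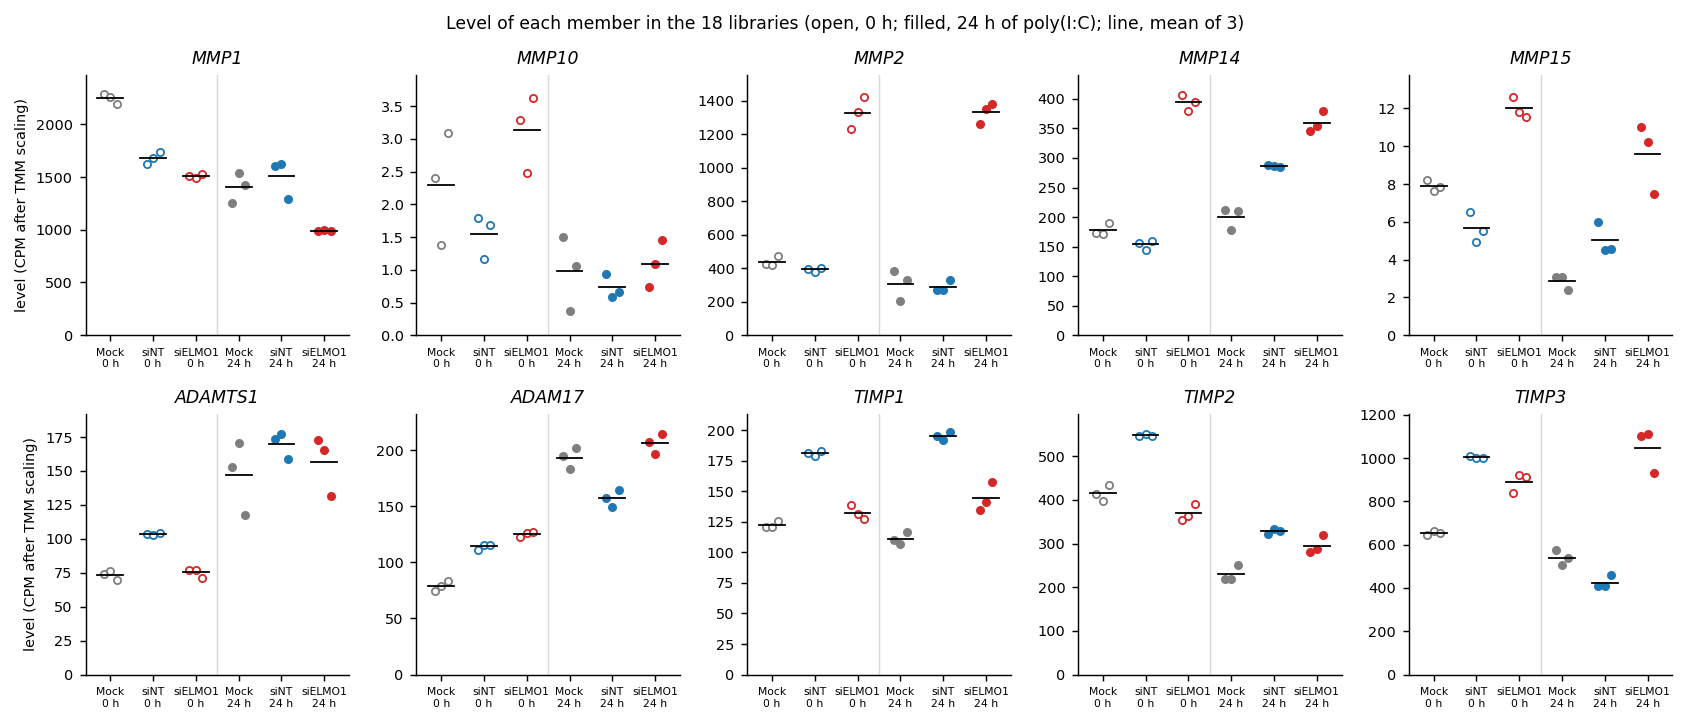
Level of each of the 10 genes in each library, in CPM after TMM scaling on axes that start at 0. Open points are libraries at 0 h, filled points libraries at 24 h of poly(I:C), and lines are means of 3 libraries. MMP2 sits at 1231 to 1422 CPM in all 6 siELMO1 libraries and at 204 to 475 CPM in the 12 others.

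To ask what the knockdown did to these genes, siELMO1 was compared with siNT and with Mock at each time. A gene was called at a Benjamini-Hochberg adjusted p under 0.05 over all 15167 genes (edgeR's quasi-likelihood test). The comparisons share libraries, so their values are given side by side. Against siNT at 0 h, MMP2, MMP14, MMP15, MMP10 and ADAM17 were higher and TIMP1, TIMP2, TIMP3 and ADAMTS1 were lower, which makes 5 higher and 4 lower of 10, where 31.3% of all genes were higher and 31.3% lower. Against Mock at 0 h 5 were higher (background 27.9%) and 2 lower (22.4%), against siNT at 24 h 5 higher (26%) and 3 lower (26.5%), and against Mock at 24 h 6 higher (21.6%) and 1 lower (22%). The median log2 fold change of the 10 genes was -0.01, 0.45, 0.36 and 0.37 in these 4 comparisons, and that of all genes was within 0.041 of 0. MMP2, MMP14 and MMP15 were called higher in all 4.

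MMP2 rose most. In Mock and siNT at 0 h its level was 427, 418 and 475 CPM and 396, 380.2 and 404 CPM, and in siELMO1 it was 1231, 1334 and 1422 CPM. At 24 h it was 381, 204 and 330.2 CPM in Mock, 269.8, 273 and 327 CPM with siNT and 1262, 1349 and 1381 CPM in siELMO1. The 6 siELMO1 libraries thus exceeded the controls at both times without overlap, and the second Mock library was the lowest at 24 h. Relative to siNT, the log2 fold change was 1.76 at 0 h (SE 0.15, adjusted p = 1.3e-08) and 2.20 at 24 h (SE 0.15, adjusted p = 2.9e-09), which is 3.38 and 4.59 times. Over Mock it was 1.59 (adjusted p = 8.3e-08) and 2.13 (adjusted p = 6.5e-09). In GRCh38 (GENCODE v44) MMP2 lies on chromosome 16 from 55389700 to 55506691 on the plus strand, and its transcript MMP2-201 held 98.9% to 99.95% of its counts in the group means.

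MMP14, which encodes the activator of the MMP2 precursor, rose more over siNT at 0 h than at 24 h (tested as an interaction below). At 0 h it was at 174, 172 and 190.1 CPM in Mock, 157, 145 and 160.1 CPM in the siNT libraries and 407, 380.4 and 394 CPM in siELMO1. At 24 h the values were 212, 177 and 210.3 CPM in Mock, 287, 286 and 285 CPM with siNT and 345, 354 and 379 CPM in siELMO1. The siELMO1 libraries were the highest at both times, and at 24 h the siNT libraries lay above those of Mock. Over siNT the log2 fold change was 1.36 at 0 h (SE 0.066, adjusted p = 6.4e-12) and 0.33 at 24 h (SE 0.064, adjusted p = 3.5e-04), and over Mock it was 1.14 (adjusted p = 1.1e-10) and 0.85 (adjusted p = 1.5e-08).

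MMP15, the other membrane-type enzyme, was a low gene, with 141 to 929 counts per library. At 0 h it was at 8.23, 7.62 and 7.83 CPM in Mock, 6.54, 4.96 and 5.50 CPM in the siNT libraries and 12.6, 11.8 and 11.5 CPM in siELMO1. After poly(I:C) the values were 3.06, 3.09 and 2.41 CPM in Mock, 5.97, 4.53 and 4.55 CPM with siNT and 11.0, 10.2 and 7.47 CPM in siELMO1. No siELMO1 library fell into the range of a control at the same time. On the log2 scale the difference from siNT was 1.08 at 0 h (SE 0.15, adjusted p = 5.6e-06) and 0.93 at 24 h (SE 0.15, adjusted p = 5.4e-05), and over Mock it was 0.61 (adjusted p = 0.0023) and 1.75 (adjusted p = 8.8e-08).

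MMP1, the most abundant of the 10, was not higher in siELMO1 in any of the 4 comparisons. At 0 h it was at 2289, 2263 and 2196 CPM in Mock, 1625, 1676 and 1733 CPM in the siNT libraries and 1506, 1490.0 and 1532 CPM in siELMO1. With poly(I:C) it was at 1258, 1534 and 1420.1 CPM in Mock, 1605, 1621 and 1292 CPM with siNT and 985, 996 and 985 CPM in siELMO1. The siELMO1 libraries were thus the lowest of their time point at both times. Its log2 fold change over siNT was -0.15 at 0 h (SE 0.073, adjusted p = 0.078), which was not called here but was with library totals (-0.17, adjusted p = 0.041), and -0.61 at 24 h (SE 0.073, adjusted p = 2.3e-06), and over Mock it was -0.58 (adjusted p = 3.6e-06) and -0.51 (adjusted p = 2.2e-05). At 0 h siNT was also lower than Mock, with a log2 difference of -0.42 (adjusted p = 1.1e-04).

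MMP10 lies next to MMP1 on chromosome 11, from 102770502 to 102780628 on the minus strand, with MMP1 from 102789401 to 102798160 on the same strand, 8772 bases apart and with no annotated protein-coding gene between them. It was a low gene, with 22 to 242 counts per library. At 0 h it was at 2.40, 1.38 and 3.09 CPM in Mock, 1.79, 1.17 and 1.69 CPM in the siNT libraries and 3.29, 2.48 and 3.63 CPM in siELMO1, and the 24 h values, of 0.364 to 1.503 CPM, are given with the responses below. The siELMO1 libraries at 0 h lay above those of siNT and overlapped those of Mock. The log2 fold change over siNT at 0 h was 1.02 (SE 0.39, adjusted p = 0.032), and without the first siELMO1 library it was 0.98 and no longer called (adjusted p = 0.065). Without other single libraries of these groups the adjusted p reached 0.11. Over Mock at 0 h it was 0.46 (95% interval from -0.30 to 1.21, adjusted p = 0.35), and the Mock libraries alone ran from 1.38 to 3.09 CPM.

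The bases before the start sites are shown for MMP10, MMP15 and TIMP3, whose annotated starts coincide with the end of the window. With poly(I:C), described below, all 3 were called lower in Mock, and their calls differed in the other transfections. MMP10 was also lower in siNT and siELMO1, MMP15 was called in neither, and TIMP3 was lower in siNT and higher in siELMO1. A link between the bases and these responses was not tested. The sequences come from RefSeq, build GRCh38.p14, which held a window for 6 of the 10 genes (MMP10, MMP14, MMP15, ADAM17, TIMP1 and TIMP3). Each line gives the 250 bases before the start on the strand of the gene, 5′ to 3′, for MMP10 at chr11:102780629-102780878 (minus strand), MMP15 at chr16:58025504-58025753 (plus strand) and TIMP3 at chr22:32801455-32801704 (plus strand). Capitals mark an AP-1 motif (TGANTCA, either strand) and a TATA box (TATAAA, strand of the gene).
MMP10: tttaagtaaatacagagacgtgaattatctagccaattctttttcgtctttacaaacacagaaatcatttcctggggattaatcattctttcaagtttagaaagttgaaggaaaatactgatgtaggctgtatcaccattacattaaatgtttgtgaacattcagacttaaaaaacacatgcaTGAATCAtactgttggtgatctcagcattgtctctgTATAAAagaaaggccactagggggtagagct
MMP15: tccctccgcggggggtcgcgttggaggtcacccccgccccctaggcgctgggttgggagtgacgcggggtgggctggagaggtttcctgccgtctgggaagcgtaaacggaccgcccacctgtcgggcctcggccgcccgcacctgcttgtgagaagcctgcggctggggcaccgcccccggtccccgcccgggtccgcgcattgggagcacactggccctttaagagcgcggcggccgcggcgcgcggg
TIMP3: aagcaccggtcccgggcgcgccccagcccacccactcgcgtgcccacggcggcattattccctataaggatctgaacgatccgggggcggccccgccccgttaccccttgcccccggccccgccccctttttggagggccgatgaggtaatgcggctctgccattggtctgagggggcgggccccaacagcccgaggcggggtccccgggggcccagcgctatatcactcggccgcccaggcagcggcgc
MMP10 held 1 AP-1 motif, which begins 67 bases before the start, and 1 TATA box, which begins 31 bases before it, and they do not overlap. Of 35116 RefSeq windows of this length, 6.57% held the AP-1 motif and 6.8% the TATA box. Neither was in the other 5 windows, and the NF-κB motif searched, which 5.21% of all windows held, was in none of the 6. G and C made up 34.4% of the MMP10 window, 56.8% to 75.6% of the other 5, and 58% of the median window. A match says that these letters are present and nothing about a bound factor.

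Of the shedding and secreted proteases, ADAM17 was above siNT at both times, and ADAMTS1 was below it at 0 h. At 0 h the Mock libraries had 74.8, 78.6 and 83.6 CPM of ADAM17, those of siNT 111, 115 and 116 CPM and those of siELMO1 123, 127 and 127 CPM. The 24 h values were 195, 183 and 202 CPM for Mock, 157, 149.8 and 165 CPM for siNT and 207, 197 and 214 CPM for siELMO1. It was therefore above siNT at both times, by 0.14 at 0 h (SE 0.052, adjusted p = 0.031) and 0.39 at 24 h (SE 0.052, adjusted p = 7.0e-06) on the log2 scale. Over Mock at 0 h the log2 fold change of siELMO1 was 0.67 (adjusted p = 8.8e-09), and that of siNT was 0.53 (adjusted p = 1.8e-07). At 24 h siELMO1 overlapped Mock (log2 fold change 0.09, 95% interval from -0.01 to 0.19, adjusted p = 0.16). The call at 0 h against siNT was lost without any of 4 single libraries (adjusted p up to 0.11) and with library totals (0.11, adjusted p = 0.073). It was also lost when every gene with at least 1 count was tested (0.11, adjusted p = 0.16). IAH1, at a mean of 15.9 CPM, shares exons with ADAM17 on the other strand, so part of the ADAM17 level is uncertain if reads were counted without strand.

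For ADAMTS1 the 0 h values were 73.9, 76.3 and 69.7 CPM (Mock), 103, 103 and 104 CPM (siNT) and 77.1, 77.3 and 71.4 CPM (siELMO1), so siNT stood above both others. The log2 fold change of siELMO1 was -0.46 over siNT (SE 0.11, adjusted p = 0.0013) and 0.04 over Mock (95% interval from -0.17 to 0.25, adjusted p = 0.80). The sign of the difference from Mock turned to -0.04 with library totals. At 24 h the 9 libraries ran from 117 to 178 CPM with overlap between all groups, and neither difference was called (-0.12 from siNT, adjusted p = 0.39, and 0.09 from Mock, adjusted p = 0.52).

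All 3 inhibitors were lower than in siNT at 0 h, and at 24 h TIMP1 and TIMP2 were lower and TIMP3 higher. At 0 h TIMP1 was at 121, 120.5 and 126 CPM (Mock), 181, 179 and 183 CPM (siNT) and 139, 132 and 127 CPM (siELMO1). At 24 h it was at 110.0, 106 and 117 CPM, 195, 192 and 199 CPM, and 135, 142 and 158 CPM in the same order. siELMO1 lay between the controls at both times. Against siNT it was lower, at -0.45 on the log2 scale at 0 h (SE 0.053, adjusted p = 9.1e-07) and -0.43 at 24 h (SE 0.053, adjusted p = 3.0e-06). Against Mock it was 0.12 at 0 h (adjusted p = 0.076), not called, and 0.38 at 24 h (adjusted p = 1.6e-05).

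TIMP2, the inhibitor that also bridges MMP14 and the MMP2 precursor, was at 413, 397 and 434 CPM in Mock, 545, 552 and 546 CPM with siNT and, in siELMO1, 355, 363 and 390.1 CPM at 0 h. With poly(I:C), TIMP2 was at 219, 219.8 and 250.1 CPM in the Mock libraries, 323, 334 and 329 CPM in those of siNT and 281, 287 and 319 CPM in those of siELMO1. It was the highest in siNT at both times, and no siELMO1 library overlapped a control. Its log2 fold change over siNT was -0.57 at 0 h (SE 0.059, adjusted p = 1.7e-07) and -0.15 at 24 h (SE 0.059, adjusted p = 0.037), and over Mock it was -0.17 (adjusted p = 0.025) and 0.36 (adjusted p = 7.8e-05). The difference of -0.17 from Mock fell to -0.14 and was not called without the first siELMO1 library (adjusted p = 0.077), nor without the second one (adjusted p = 0.075) or Mock replicate 3 (adjusted p = 0.051). The 24 h difference from siNT was not called without any single library of those groups except siELMO1 replicate 3, with adjusted p up to 0.15. Nor was it called with only the groups compared (-0.15, adjusted p = 0.057) or without Mock 0 h replicate 1 (-0.15, adjusted p = 0.052). When every gene with at least 1 count was tested, the call was lost as well (-0.14, adjusted p = 0.12).

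TIMP3, the matrix-bound inhibitor, was the TIMP with the largest change. At 0 h it was at 645, 661 and 655 CPM in Mock, 1007, 999.6 and 1001 CPM in the siNT libraries and 837, 920.3 and 913 CPM in siELMO1. After 24 h it was at 573, 506 and 539 CPM in Mock, 407, 409 and 458 CPM with siNT and 1101, 1112 and 931 CPM in siELMO1. The order of siELMO1 and siNT thus changed between the times, with no overlap at either. Over siNT the log2 difference was -0.17 at 0 h (SE 0.066, adjusted p = 0.030) and 1.30 at 24 h (SE 0.067, adjusted p = 8.9e-11), or 2.47 times, and over Mock it was 0.44 (adjusted p = 2.2e-05) and 0.96 (adjusted p = 4.8e-09). The 0 h difference from siNT became -0.13 without the first siELMO1 library and was not called (adjusted p = 0.11), and it was also not called without any single siNT library (adjusted p from 0.059 to 0.067). TIMP3 (chromosome 22, 32801705 to 32863041) and TIMP1 (chromosome X, 47582408 to 47586789) each lie within a synapsin gene on the other strand, SYN3 and SYN1, with no exon in common. SYN3 and SYN1 averaged 0.0145 and 0.173 CPM over the 18 libraries.

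**Figure D2:**
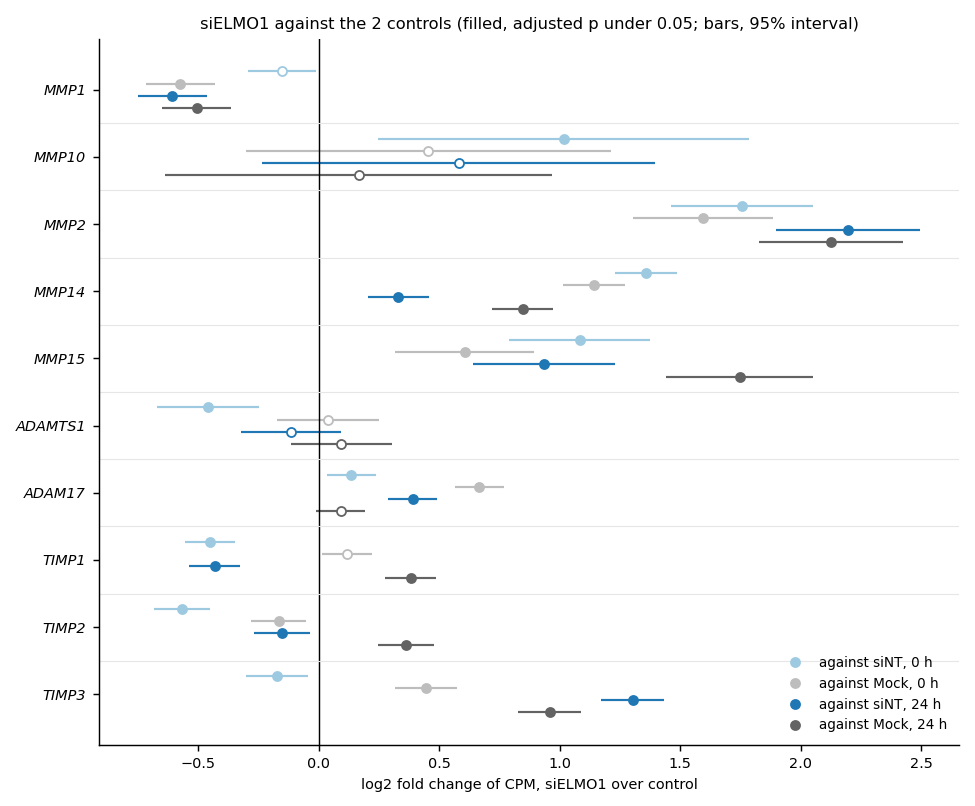
Log2 fold change of siELMO1 over siNT (blue) and over Mock (grey) at 0 h (light) and 24 h (dark) for each gene, with 95% intervals. Filled points passed an adjusted p under 0.05. MMP2, MMP14 and MMP15 lie to the right of 0 in all 4 comparisons, and TIMP3 moves from -0.17 to 1.30 against siNT.

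Of the 40 values that rest on the library of siELMO1 that stood apart at 0 h (10 genes in the comparisons with siNT and Mock at 0 h, the response to poly(I:C) in siELMO1 and its difference from siNT), none moved by more than 0.052 on the log2 scale without it, and 24 of 27 calls held. The 3 that were lost are those of MMP10, TIMP2 and TIMP3 given above. Leaving this library out keeps the others of its group, which were the unusual ones by mitochondrial share. The check therefore cannot show what follows if those are the atypical ones.

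The controls were compared to show what the siRNA transfection itself went with. At 0 h, siNT was higher than Mock in TIMP1, TIMP2, TIMP3, ADAM17 and ADAMTS1 (5 of 10, background 27.6%) and lower in MMP1, MMP14 and MMP15 (3 of 10, background 24%). The largest of these log2 differences was that of TIMP3, at 0.62 (SE 0.066, adjusted p = 5.1e-07), followed by TIMP1 with 0.57 (SE 0.053, adjusted p = 1.0e-07). Among the lower genes MMP15 was at -0.48 (adjusted p = 0.012) and MMP14 at -0.22 (adjusted p = 0.0098), and neither was called without siNT replicate 2 (adjusted p = 0.064 and 0.057). All 3 TIMPs were called higher, and 3 of the 5 MMPs lower.

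At 24 h TIMP1 (0.81, adjusted p = 2.6e-09), TIMP2 (0.52, adjusted p = 1.4e-06), MMP14 (0.52, adjusted p = 3.8e-06) and MMP15 (0.81, adjusted p = 3.3e-04) were higher in siNT than in Mock (4 of 10, background 25.2%), as log2 fold changes. TIMP3 (-0.34, adjusted p = 3.2e-04) and ADAM17 (-0.30, adjusted p = 1.2e-04) were lower (2 of 10, background 24.9%). MMP2 was at -0.07 (95% interval from -0.36 to 0.21, adjusted p = 0.71), but without the low second Mock library it was -0.29 and called (adjusted p = 0.011). ADAMTS1 was at 0.21 and not called (adjusted p = 0.12), and with the replicate number as a block it was called (0.22, adjusted p = 0.031), as it was without the second Mock library (0.33, adjusted p = 0.019).

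To ask how these genes responded to poly(I:C), 24 h was compared with 0 h in each transfection. In Mock, all 10 genes were called, with ADAM17, ADAMTS1 and MMP14 higher (3 of 10, background 30.7%) and MMP1, MMP2, MMP10, MMP15 and the 3 TIMPs lower (7 of 10, background 29.6%). In siNT, MMP14, ADAM17 and ADAMTS1 were higher (3 of 10, background 28.6%) and MMP2, MMP10, TIMP2 and TIMP3 lower (4 of 10, background 25.2%). In siELMO1, ADAM17, ADAMTS1 and TIMP3 were higher (3 of 10, background 28%) and MMP1, MMP10 and TIMP2 lower (3 of 10, background 26.9%). The median over the 10 genes was -0.40 in Mock, -0.17 in siNT and -0.06 in siELMO1, and that of all genes was within 0.015 of 0.

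ADAM17 and ADAMTS1 rose in each transfection, from the values given above for ADAM17. Its log2 fold change was 1.29 in Mock (SE 0.053, adjusted p = 5.8e-13), 0.46 in siNT (SE 0.052, adjusted p = 7.9e-07) and 0.72 in siELMO1 (SE 0.052, adjusted p = 2.4e-09). ADAMTS1 went to 153, 171 and 117 CPM in Mock, 174, 178 and 158 CPM in the siNT libraries and 173, 166 and 132 CPM in siELMO1, all above every 0 h library. The log2 fold changes were 1.01 (adjusted p = 3.1e-07), 0.72 (adjusted p = 2.2e-05) and 1.06 (adjusted p = 2.1e-07), with an SE of 0.11 each.

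MMP10 and TIMP2 fell in each transfection. MMP10 was at 1.503, 0.364 and 1.06 CPM in Mock, 0.935, 0.589 and 0.664 CPM with siNT and 0.742, 1.09 and 1.46 CPM in siELMO1 with poly(I:C), below the 0 h libraries in siNT and siELMO1 and overlapping them in Mock. On the log2 scale the change was -1.24 in Mock (SE 0.40, adjusted p = 0.013), -1.09 in siNT (SE 0.41, adjusted p = 0.034) and -1.52 in siELMO1 (SE 0.40, adjusted p = 0.0038). The calls in Mock and siNT were lost without single libraries, with adjusted p up to 0.065 and 0.11, and the call in siNT also with limma-voom (-1.10, adjusted p = 0.058) and with every gene tested (-1.10, adjusted p = 0.057). TIMP2 was lower, with log2 fold changes of -0.85 in Mock (SE 0.059, adjusted p = 9.6e-10), -0.74 in siNT (SE 0.059, adjusted p = 1.1e-08) and -0.32 in siELMO1 (SE 0.059, adjusted p = 1.6e-04).

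MMP1, MMP2 and MMP15 were lower with poly(I:C) in Mock, with log2 fold changes of -0.68 (adjusted p = 3.0e-07), -0.53 (adjusted p = 0.0047) and -1.47 (adjusted p = 2.4e-07). In siNT, MMP2 was lower (-0.44, adjusted p = 0.017), while MMP1 (-0.16, adjusted p = 0.081, but called by DESeq2 with -0.17, adjusted p = 0.038) and MMP15 (-0.18, adjusted p = 0.34) were not called. The MMP2 call in siNT was lost without siNT 24 h replicate 1 (-0.39, adjusted p = 0.064) and without replicate 2 (-0.40, adjusted p = 0.061). In siELMO1, MMP1 was lower (-0.61, adjusted p = 1.5e-06) and MMP2 was at 0.00 (95% interval from -0.28 to 0.29, adjusted p = 0.99), a sign that turned with other scalings. MMP15 was at -0.32 in siELMO1 (adjusted p = 0.071), not called here but called lower by limma-voom (-0.33, adjusted p = 0.031) and by the same fit with replicate as a random effect (-0.33, adjusted p = 0.023).

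MMP14, TIMP1 and TIMP3 were not called in the same direction in all 3 transfections. MMP14 rose in siNT by 0.90 (SE 0.065, adjusted p = 2.9e-09), was at -0.13 in siELMO1 (SE 0.064, adjusted p = 0.093) and at 0.16 in Mock (SE 0.065, adjusted p = 0.036), the last of which was lost with library totals (0.04, adjusted p = 0.61) and without 4 single Mock libraries. TIMP1 was at -0.14 in Mock (adjusted p = 0.035), which was lost without Mock 24 h replicate 2 (-0.11, adjusted p = 0.14) or Mock 0 h replicate 3 (-0.15, adjusted p = 0.051), and at 0.11 and 0.13 in siNT and siELMO1, not called. TIMP3 fell by 1.24 in siNT (SE 0.067, adjusted p = 5.6e-11) and by 0.28 in Mock (SE 0.066, adjusted p = 0.0015), and rose by 0.24 in siELMO1 (SE 0.066, adjusted p = 0.0057).

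**Figure D3:**
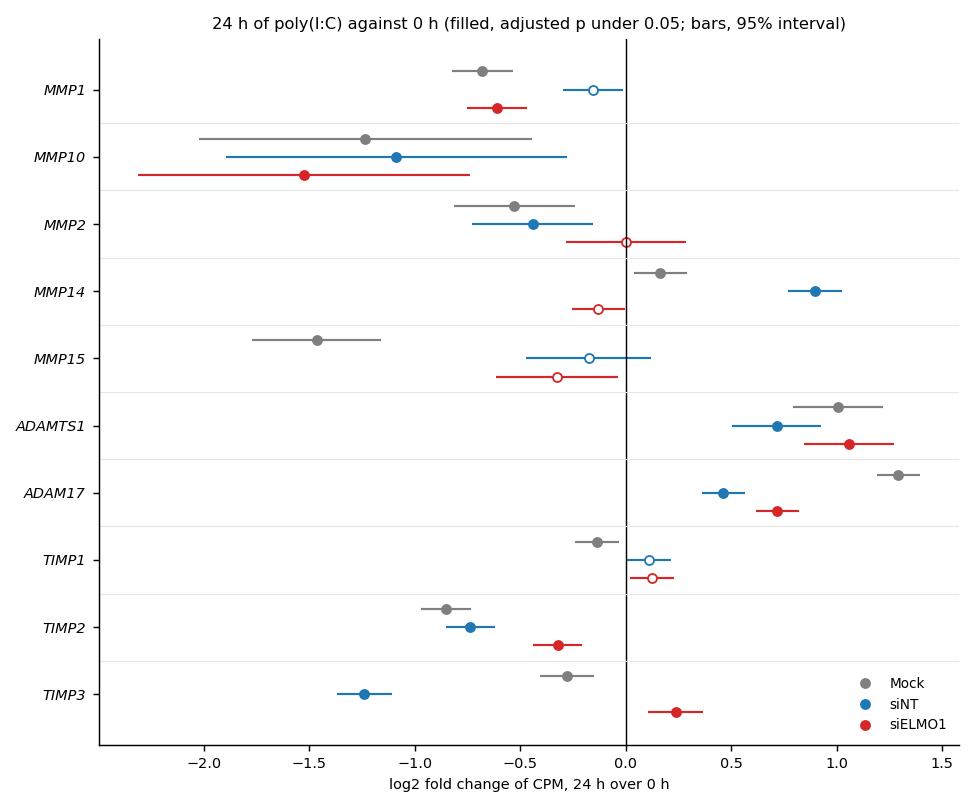
Log2 fold change of 24 h of poly(I:C) over 0 h in Mock (grey), siNT (blue) and siELMO1 (red), with 95% intervals and filled points for an adjusted p under 0.05. ADAM17 and ADAMTS1 lie to the right of 0 and MMP10 and TIMP2 to the left in each transfection, while TIMP3 runs from -1.24 in siNT to 0.24 in siELMO1.

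The difference between the responses in siELMO1 and siNT was tested as an interaction. It was positive and called for TIMP3, TIMP2 and ADAM17 (3 of 10, background 16.7%) and negative and called for MMP14 and MMP1 (2 of 10, background 17.8%). TIMP3 had the largest value, 1.48 on the log2 scale (SE 0.094, adjusted p = 2.0e-09), and MMP14 the next, -1.03 (SE 0.091, adjusted p = 1.1e-07). For MMP1 it was -0.45 (SE 0.10, adjusted p = 0.0023), for TIMP2 0.41 (SE 0.083, adjusted p = 8.5e-04) and for ADAM17 0.26 (SE 0.074, adjusted p = 0.012). MMP2 was at 0.44 (95% interval from 0.04 to 0.85, adjusted p = 0.11), not called, and was called without Mock 24 h replicate 2 (0.44, adjusted p = 0.0050), a library outside this comparison that adds to the shared estimate of spread. ADAMTS1 was at 0.34 (adjusted p = 0.091; DESeq2 gave 0.36 with an adjusted p of 0.040), MMP10 at -0.44 (adjusted p = 0.60), MMP15 at -0.15 (adjusted p = 0.63) and TIMP1 at 0.02 (adjusted p = 0.88), and none was called.

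Summed per length, the 5 MMPs and the 3 TIMPs gave a ratio in each library, reported as a description. The MMP sum was 3228 ± 34.5 TPM (SD, n = 3) in Mock, 2301 ± 78.6 TPM in siNT and 2922 ± 87.3 TPM in siELMO1 at 0 h, and 1925 ± 74.2, 2109 ± 179 and 2281 ± 63.8 TPM at 24 h. MMP1 made up 86.5% ± 1.10 of it in Mock, 84.5% ± 0.564 in siNT and 60.8% ± 1.10 in siELMO1 at 0 h, and 83.2% ± 4.41, 82.3% ± 2.72 and 51.1% ± 1.12 at 24 h. MMP2 made up 30.2% ± 1.49 and 38.6% ± 0.914 of it in siELMO1, against group means of 9.04% to 11.1% in the controls.

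The TIMP sum was 1003 ± 19.9 TPM in Mock, 1363 ± 19.97 TPM in siNT and 1073 ± 23.4 TPM in siELMO1 at 0 h, and 722 ± 42.7, 974 ± 30.0 and 1142 ± 11.6 TPM at 24 h. TIMP3 made up 41.8% ± 1.55 of it in siELMO1 and 36.5% ± 0.126 in siNT at 0 h, and 46.3% ± 4.36 and 21.6% ± 0.963 at 24 h, when TIMP1 held 57.4% ± 0.686 in siNT. The ratio of the MMP sum to the TIMP sum was 3.29, 3.25 and 3.11 in the Mock libraries, 1.65, 1.68 and 1.74 in those of siNT and 2.71, 2.68 and 2.78 in those of siELMO1 at 0 h. At 24 h it was 2.49, 2.91 and 2.62, 2.30, 2.33 and 1.89, and 1.97, 1.98 and 2.04 in the same order. At 0 h the 3 groups did not overlap, with siNT the lowest, and at 24 h siNT and siELMO1 overlapped. With CPM summed in place of TPM, Mock (2.36 to 2.46) and siELMO1 (2.28 to 2.38) overlapped at 0 h, and at 24 h siNT had the highest mean (2.21, against 2.18 in Mock and 1.81 in siELMO1). The smallest two-sided p of a permutation test of 3 libraries against 3 is 0.10, so none was run. MMP1 and TIMP1 were the members of each family with the highest level over the 18 libraries (in siELMO1 TIMP3 was above TIMP1). They were left out only together, so the part of each in the order was not tested. Without both, the ratio was highest in siELMO1, at 1.67 ± 0.0330 at 0 h and 1.56 ± 0.146 at 24 h. It was then 0.425 ± 0.0176 in siNT and 0.697 ± 0.0389 in Mock at 0 h, and 0.892 ± 0.0196 and 0.788 ± 0.142 at 24 h.

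**Figure D4:**
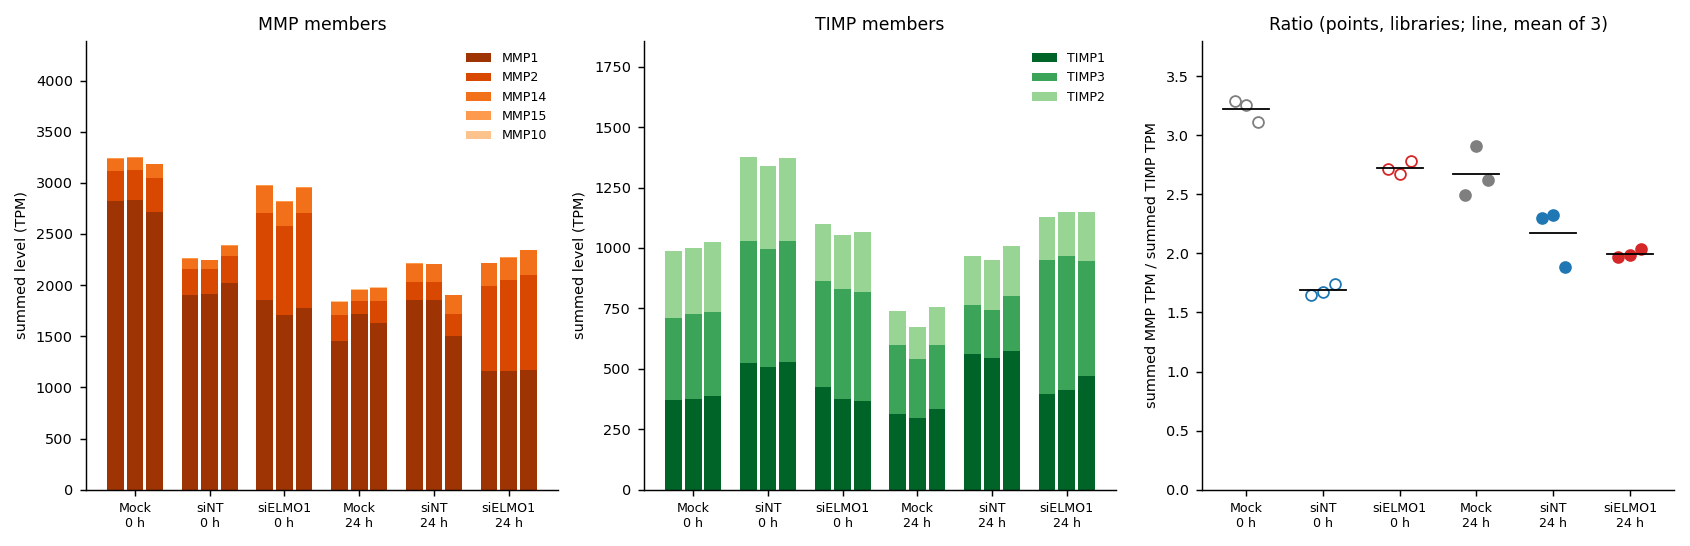
Stacked level per length (TPM) of the 5 MMPs and of the 3 TIMPs in each of the 18 libraries, and the ratio of the sums, with points for libraries and lines for means of 3. MMP1 has the highest level of the 5 MMPs in every library, MMP2 widens in siELMO1, and the ratio runs from 1.65 in a siNT library to 3.29 in a Mock library, both at 0 h.

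In GRCh38, MMP14 lies on chromosome 14 from 22836560 to 22849041 and MMP15 on chromosome 16 from 58025754 to 58046901, both on the plus strand, and none of the genes annotated there overlaps them. ADAMTS1 is on chromosome 21 from 26835755 to 26845409, ADAM17 on chromosome 2 from 9488486 to 9556732 and TIMP2 on chromosome 17 from 78852977 to 78925387, all on the minus strand. Of the 10 genes, 5 had 1 dominant transcript in every group. MMP1-201, MMP10-201, MMP15-201 and MMP2-201 each held over 98% of their gene's counts in every group mean, and TIMP3 has 1 annotated transcript. TIMP1-201 held 86.5% to 89.4% and TIMP1-205 9.90% to 12.2%. The main transcripts of the other 4 genes took shares that differed between libraries of a group. MMP14-201 held 77.7% to 99.7% of the counts over the 18 libraries, ADAMTS1-201 76.1% to 99.5% and TIMP2-201 79.2% to 99.8%. ADAM17, with counts on 28 annotated transcripts, had the widest range, 45.2% to 90.8% for ADAM17-201. How StringTie divided reads among overlapping transcripts could not be checked here.

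Other genes of the same families were followed through lists. The shares of all genes called, against which their counts stand, are those given above: 31.3% higher and 31.3% lower than siNT at 0 h, and 26% and 26.5% at 24 h. Of 18 other MMPs, 6 were tested, and 2 were higher and 1 lower in siELMO1 than in siNT at 0 h, and 1 higher and 2 lower at 24 h, which are near those shares. MMP11 (stromelysin-3) was higher than in siNT, at 2.96 ± 0.325 against 1.355 ± 0.167 CPM at 0 h (log2 fold change 1.13, adjusted p = 1.2e-04). At 24 h it was at 1.70 ± 0.222 against 0.939 ± 0.128 CPM (0.85, adjusted p = 0.0026). Over Mock, MMP11 was at 0.46 at 0 h (adjusted p = 0.066), not called, and at 0.67 at 24 h (adjusted p = 0.015). At 0 h siNT was itself lower than Mock in MMP11 (-0.67, adjusted p = 0.011). MMP17, a membrane-type enzyme, was lower at both times (-0.69, adjusted p = 0.0057 and -0.68, adjusted p = 0.0081) than in siNT, and against Mock it was at 0.16 (adjusted p = 0.54) and 0.42 (adjusted p = 0.11). MMP16, another membrane-type enzyme, was at 59.5 ± 2.23 against 46.9 ± 2.45 CPM at 0 h (0.34, adjusted p = 0.0013) and lower than siNT at 24 h with overlapping libraries (-0.27, adjusted p = 0.011), while it was higher than in Mock at both times (0.55, adjusted p = 2.1e-05 and 0.68, adjusted p = 5.5e-06), and it fell with poly(I:C) by 1.93, 1.18 and 1.80 in Mock, siNT and siELMO1 (adjusted p = 2.3e-12, 2.2e-09 and 6.1e-12). Over the 6 tested genes the median was -0.25 and -0.09.

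Of 15 other ADAMs, 9 were tested, with 6 higher and 1 lower in siELMO1 than in siNT at 0 h (background 31.3% each) and 5 higher and 1 lower at 24 h (background 26% and 26.5%), and medians of 0.49 and 0.43. ADAM10, the sheddase most like ADAM17 in function, was at 202 ± 5.75 CPM with siNT and 327 ± 18.1 CPM with siELMO1 at 0 h (0.69, adjusted p = 2.8e-08) and at 212 ± 9.19 and 335 ± 10.5 CPM at 24 h (0.66, adjusted p = 1.3e-07). Against Mock it was higher by 0.59 (adjusted p = 3.9e-07) and 0.56 (adjusted p = 1.2e-06). ADAM15 was higher than in siNT (1.36, adjusted p = 5.2e-09 and 1.26, adjusted p = 3.6e-08), while against Mock it was at -0.25 at 0 h (adjusted p = 0.060) and siNT was itself lower than Mock (-1.61, adjusted p = 1.7e-09). ADAM19 was higher at both times (0.55, adjusted p = 0.0023 and 0.48, adjusted p = 0.0083).

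Of 18 other ADAMTSs, 6 were tested, with 2 higher and 2 lower in siELMO1 than in siNT at 0 h (background 31.3% each) and 3 higher and 2 lower at 24 h (background 26% and 26.5%). ADAMTS7 had a rise of the size of that of MMP2, from 17.5 ± 1.47 CPM in siNT to 59.4 ± 7.17 CPM in siELMO1 at 0 h (1.76, adjusted p = 2.3e-05) and from 15.7 ± 4.04 to 81.9 ± 22.5 CPM at 24 h (2.38, adjusted p = 1.8e-06). ADAMTS10 was higher by 1.16 (adjusted p = 4.8e-08) and 0.68 (adjusted p = 5.2e-05). ADAMTS18 was lower at 0 h (-1.11, adjusted p = 0.0085), at 0.489 ± 0.209 against 1.09 ± 0.177 CPM in siNT. It was a low gene there, with 11 to 51 counts per siELMO1 library. ADAMTS16 was lower at both times (-0.55, adjusted p = 0.0023 and -0.44, adjusted p = 0.014). Over Mock, ADAMTS16 was at 0.17 at 0 h (adjusted p = 0.35), not called, and at -0.42 at 24 h (adjusted p = 0.022). At 0 h siNT was itself higher than Mock in ADAMTS16 (0.72, adjusted p = 3.3e-04).

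Among 16 inhibitors, activators and partners, 13 were tested, of which 5 were higher and 3 lower in siELMO1 than in siNT at 0 h (background 31.3% each) and 4 higher and 4 lower at 24 h (background 26% and 26.5%), near those shares. TIMP4 had no count in any library. RECK, a membrane-anchored inhibitor of MMPs, was lower than in siNT at 0 h (-0.50, adjusted p = 0.0015) and at 0.07 at 24 h (adjusted p = 0.66), when it was higher than in Mock (0.63, adjusted p = 3.5e-04). Over Mock at 0 h RECK was at 0.20 (adjusted p = 0.18), not called, and siNT was itself higher than Mock (0.70, adjusted p = 9.8e-05). Of the plasmin system, which activates several MMP precursors, PLAU (urokinase) was lower than in siNT at both times (-0.83, adjusted p = 2.8e-08 and -0.60, adjusted p = 3.5e-06), but at 0 h it was higher than in Mock (0.34, adjusted p = 0.0010). PLAT (tissue plasminogen activator) was higher at 0 h (0.42, adjusted p = 2.8e-04) and lower at 24 h (-1.28, adjusted p = 1.5e-09) than in siNT, and higher than in Mock at both times (0.77, adjusted p = 5.5e-07 and 0.80, adjusted p = 5.7e-07). SERPINE2 was higher than in siNT at both times (0.99, adjusted p = 2.3e-08 and 1.38, adjusted p = 9.1e-10). Over Mock it was higher at 0 h (0.53, adjusted p = 6.3e-05) but at 0.06 at 24 h (adjusted p = 0.59), not called. In siNT itself SERPINE2 was lower than in Mock at 0 h (-0.46, adjusted p = 2.7e-04) and at 24 h (-1.31, adjusted p = 2.5e-09). Against Mock, 10 of the 13 were higher at 0 h (background 27.9%), and 7 higher (21.6%) and 2 lower (22%) at 24 h. In siNT too, many of the 13 differed from Mock, with 8 higher (27.6%) and 3 lower (24%) at 0 h. At 24 h, 9 were higher (25.2%) and 4 lower (24.9%) in siNT than in Mock.

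PLAUR, the urokinase receptor, was at 0.00 at 0 h (adjusted p = 0.96) and lower at 24 h (-0.56, adjusted p = 4.1e-08). FURIN, which cuts the precursors of MMP14 and ADAM17, was higher than in siNT at 0 h (0.35, adjusted p = 0.0015) and at 0.20 at 24 h (adjusted p = 0.059), and BSG, an inducer of MMPs, was at 0.05 at 0 h (adjusted p = 0.24) and higher at 24 h (0.30, adjusted p = 2.5e-06). Of the partners that carry ADAM17 to the cell surface, RHBDF2 was higher than in siNT at both times (0.81, adjusted p = 3.6e-06 and 0.51, adjusted p = 3.6e-04) and lower than in Mock at 24 h (-0.27, adjusted p = 0.037), and RHBDF1 was called at neither (-0.14, adjusted p = 0.14 and 0.13, adjusted p = 0.21). FRMD8 was lower than in siNT at 0 h (-0.32, adjusted p = 0.0064) and not called at 24 h (0.16, adjusted p = 0.17), and it was higher than in Mock at both times (0.34, adjusted p = 0.0054 and 0.55, adjusted p = 1.2e-04), as RHBDF1 was (0.49, adjusted p = 8.6e-05 and 0.70, adjusted p = 3.0e-06). With poly(I:C), RHBDF2 rose in each transfection, by log2 fold changes of 2.21 in Mock, 1.88 in siNT and 1.59 in siELMO1 (adjusted p = 5.2e-12, 1.1e-10 and 6.1e-10), as ADAM17 did. In the responses to poly(I:C) the list of 13 had 6 higher and 1 lower in Mock (background 30.7% and 29.6%), 7 and 2 in siNT (28.6% and 25.2%) and 9 and 1 in siELMO1 (28% and 26.9%).

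For the other comparisons of the MMPs, ADAMs and ADAMTSs the largest counts of called members are given, with the share of all genes called in brackets. The 6 tested MMPs had at most 3 higher, for siNT against Mock at 0 h (27.6%), and 3 lower, for poly(I:C) in Mock (29.6%). The 9 ADAMs had at most 7 higher, for siELMO1 against Mock at 24 h (21.6%). At most 5 ADAMs were lower, for poly(I:C) in Mock (29.6%) and in siELMO1 (26.9%). The 6 ADAMTSs had at most 4 higher, for poly(I:C) in Mock (30.7%), and 3 lower, for siNT against Mock at 24 h (24.9%). Genes that overlap a member on the other strand and share exons with it, beside IAH1, averaged at most 0.287 CPM over the 18 libraries. On the same strand, CEP295NL overlaps TIMP2 at 0.362 CPM.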

How the data were processed

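RNA of 18 libraries was sequenced by the authors with a stranded mRNA kit and paired ends, aligned to GRCh38 with STAR and quantified with StringTie and its count script. The matrices deposited by the authors hold estimated counts per gene and per transcript, whole numbers that StringTie derived from coverage and that are not normalized. Whether strand was used, and the read length given to the script, are not given in the sources used here. The study's filter was kept, a summed count of 100 or more and 1 CPM or more in the highest library, and the remaining genes were tested with TMM factors and edgeR 4.0.16 (R 4.3.3), 1 quasi-likelihood model over all 18 libraries, 10 comparisons and two-sided p-values with Benjamini-Hochberg adjustment over 15167 genes. The biological coefficient of variation was 12.2%. Intervals are 95% normal intervals from the SE. The study used limma, whose random effect is not given there, and a limma-voom fit was an alternative (limma 3.58.1, DESeq2 1.42.0). The procedure was also run on simulated counts in which a small part of the genes changed, in a single group, with the same spread for all genes. Far more genes were called in the data, so the simulation does not cover that setting.

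TPM were computed from the transcript counts and GENCODE v44 exon lengths, for 252835 of 252894 transcripts. Samples were grouped by their labels, and the named genes are all 10 members, ELMO1, for each list of related genes the 3 with the largest change past the threshold in siELMO1 against siNT at 0 h and at 24 h (mean of at least 1 CPM, no overlap between groups), and 10 regulators of these proteases. A gene that this rule names is not reported here. The members and lists were chosen with earlier results of these data known. Alternatives were other tests, scalings and filters, only the groups compared, mitochondrially encoded genes left out, the replicate number as a block and each library left out. Pairing by replicate number was checked from the correlation of same-numbered deviations: for Mock and siNT at 24 h it was 0.289, 0.335 and 0.251 over 9640 genes with a mean of at least 10 CPM, but 0.058, 0.0817 and 0.068 over all genes tested, and no other pair of groups compared had all 3 over 0.1. Blocked values are given for that comparison where they change a call. Depth reduces counting error only, not the spread between replicates.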

Additional observations from a re-analysis of the deposited data

Results flagged for a closer look

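For 5 genes the response to poly(I:C) differed between siELMO1 and siNT by the test of the difference itself (edgeR, log2 scale): TIMP3 by 1.48 (adjusted p = 2.0e-09), MMP14 by -1.03 (adjusted p = 1.1e-07), MMP1 by -0.45 (adjusted p = 0.0023), TIMP2 by 0.41 (adjusted p = 8.5e-04) and ADAM17 by 0.26 (adjusted p = 0.012). Other differences had opposite directions with no overlap of libraries on either side and were not tested. siNT against Mock changed direction between 0 h and 24 h for MMP15, by 1.29 on the log2 scale, for MMP14, by 0.73, for ADAM17, by -0.83, and for TIMP3, by -0.96. siELMO1 against Mock changed direction between the times for TIMP2, by 0.53. The response to poly(I:C) was opposite in sign in Mock and siNT for TIMP1, with a difference of 0.24, and in Mock and siELMO1 for TIMP3, with a difference of 0.51. For TIMP1 the response in siNT was not called (0.11, adjusted p = 0.098), and the TIMP1 call in Mock was lost without single libraries, as given above. These differences share libraries and are not independent of each other. Many of them use the siNT libraries at 24 h, and the part of cell death in those cultures was not tested. Groups of 3 libraries were too small for a test of single outlying libraries.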

How the results depend on the processing

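Of 73 calls among 100 values, 61 held under all 28 alternatives, and none of the 73 changed sign. Higher calls in siELMO1 against siNT at 0 h numbered 3 in place of 5 when every gene with at least 1 count was tested, and 3 to 5 with a library left out (3 without siNT 0 h replicate 2 or siELMO1 0 h replicate 3). Lower calls with a library left out were 1 to 2 for siELMO1 against Mock at 0 h and 1 to 3 for siNT against Mock at 0 h. Lower calls of the poly(I:C) response in siELMO1 were 5 in place of 3 with library totals and with upper-quartile factors, and also 5 with the replicate block. The higher interaction calls were 5 in place of 3 with only the groups compared. Besides ADAMTS1 between the controls at 24 h, the block added calls of MMP14 (-0.13), MMP15 (-0.34) and TIMP1 (0.12) in the poly(I:C) response of siELMO1 and of ADAMTS1 in the interaction (0.34, adjusted p = 0.026), and it changed no other call. Of 18 libraries, 13 correlated best with their own number in other groups over all genes tested and 12 over those of at least 10 CPM. The sign turned only for values that were not called. ADAMTS1 in siELMO1 against Mock at 0 h was -0.041 with library totals, -0.00036 with every gene and -0.0044 with only the groups compared, and -0.028 to 0.075 with a library left out (-0.047 to 0.21 at 24 h). MMP2 in the response of siELMO1 was -0.057 with library totals, -0.056 with upper-quartile factors, -0.0068 without mitochondrially encoded genes and -0.050 to 0.053 with a library left out, and in siNT against Mock at 24 h -0.29 to 0.11. The TIMP1 interaction was -0.0073 with library totals and -0.048 to 0.067 with a library left out, and that of MMP15 -0.26 to 0.00099. MMP10 ran from -0.23 to 0.61 in siELMO1 against Mock and from -0.81 to 0.023 in siNT against Mock at 24 h. The MMP to TIMP ratio in Mock, siNT and siELMO1 was 0.697, 0.425 and 1.67 at 0 h and 0.788, 0.892 and 1.56 at 24 h without MMP1 and TIMP1, and with summed CPM it was 2.42, 1.29 and 2.33 at 0 h and 2.18, 2.21 and 1.81 at 24 h, where siNT was then the highest. The cause of these changes was not tested. MMP10 had the fewest counts (22 to 242 a library), and how far depth or the spread between replicates limits it was not tested.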
